A study of Mus musculus with 2 samples.

Results

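The genes described here are 8 mouse genes of hepatic glucose metabolism, with the summits of Hnf4a binding inside them or within 50 kb of their ends. They were chosen by name, from 21883 protein-coding genes with coordinates in RefSeq GRCm38.p6. G6pc, Pck1 and Fbp1 encode enzymes of gluconeogenesis and Ppargc1a a coactivator of their transcription, Pklr encodes an enzyme of glycolysis, Gys2 and Pygl act on glycogen, and Slc2a2 encodes a glucose transporter. Their windows held 21 summits in replicate 1, 22 summits in replicate 2 and 10 shared summits, where a shared summit is a pair from both replicates no more than 100 bp apart.

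There is 1 group of 2 samples, with no control samples analysed. Both are iHepCs, hepatocyte-like cells made from wild-type C57BL/6J embryonic fibroblasts by retroviral Foxa2 and Hnf4a, so the mapped factor was itself introduced. Their medium held 1 µg/ml insulin, 100 nM dexamethasone, 10 mM nicotinamide, HGF and EGF, both growth factors at 20 ng/ml. ChIL-seq (chromatin integration labelling) tags DNA near an antibody-bound protein with a transposase and amplifies it by transcription in the fixed cells.

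The deposited lists held 21283 summits in replicate 1 and 24097 in replicate 2, each a single base with a score, the −log10 q-value of the peak. Of these, 9193 pairs were shared, or 43.2% of replicate 1 and 38.1% of replicate 2. Read depth is unknown, and the lists hold no expression values. The labels name embryonic fibroblasts, the starting cells. Shared summits lay inside or within 50 kb of 6 of 8 hepatocyte marker genes and 1 of 8 fibroblast marker genes, against 47.9% of all protein-coding genes. Within 10 kb the counts were 3 and 0, against 26.0% of all genes, so at this distance 8 genes set neither list clearly apart. Counting unshared summits too, 6 of the 8 hepatocyte genes lay this close to a summit in each replicate. Of the 8 fibroblast genes, 0 did in replicate 1 and 6 in replicate 2, as many as of the hepatocyte genes, and the part of this gap in the replicate 2 summits at the glucose genes was not tested. The share of all genes for 1 replicate within 10 kb is not given here. Within 50 kb, 4 fibroblast genes had a replicate 1 summit and 7 a replicate 2 summit, against 70.2% and 73.4% of all genes. All 8 hepatocyte genes had one in each replicate. These counts describe where summits lie and do not identify the cells.

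Hepatocytes make glucose in fasting and break it down after feeding. Pyruvate carboxylase and phosphoenolpyruvate carboxykinase (Pck1 in the cytosol, Pck2 in mitochondria) lead away from pyruvate, fructose-1,6-bisphosphatase (Fbp1) bypasses phosphofructokinase, and glucose-6-phosphatase (G6pc) releases free glucose. Liver pyruvate kinase (Pklr) runs the last step of glycolysis. Glucagon and glucocorticoids raise the gluconeogenic genes and insulin lowers them. Hnf4a, a nuclear receptor, is known to act on both sides, at the promoters of G6pc and Pck1, where Ppargc1a is its coactivator, and at the liver promoter of Pklr.

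The G6pc, Pck1 and Pklr promoters are shown because they are known targets of Hnf4a in liver. Each sequence is from RefSeq (GRCm38.p6), 300 bases from 250 before the start site to 50 from it on, read on the gene's plus strand. The G6pc promoter is chr11:101367466-101367765, that of Pck1 chr2:173152823-173153122, and that of Pklr, at the later of its 2 start sites, which is the liver one, chr3:89136373-89136672. Capitals mark a forkhead motif.
G6pc: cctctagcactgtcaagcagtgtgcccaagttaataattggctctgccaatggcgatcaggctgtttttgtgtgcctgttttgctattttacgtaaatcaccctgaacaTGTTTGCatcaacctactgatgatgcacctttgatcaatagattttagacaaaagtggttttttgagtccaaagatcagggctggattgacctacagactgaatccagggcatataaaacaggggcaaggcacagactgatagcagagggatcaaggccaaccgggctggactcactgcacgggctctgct
Pck1: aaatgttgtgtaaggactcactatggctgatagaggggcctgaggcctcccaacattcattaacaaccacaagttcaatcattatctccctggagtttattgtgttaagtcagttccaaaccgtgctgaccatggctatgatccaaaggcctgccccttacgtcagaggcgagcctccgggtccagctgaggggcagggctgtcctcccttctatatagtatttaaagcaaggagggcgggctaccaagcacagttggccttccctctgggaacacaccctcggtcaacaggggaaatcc
Pklr: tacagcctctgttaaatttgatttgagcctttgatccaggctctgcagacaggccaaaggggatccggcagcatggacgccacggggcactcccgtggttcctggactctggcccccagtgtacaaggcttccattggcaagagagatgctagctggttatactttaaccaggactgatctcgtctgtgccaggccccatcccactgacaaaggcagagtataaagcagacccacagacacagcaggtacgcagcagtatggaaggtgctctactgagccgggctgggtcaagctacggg

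No summit of either replicate lay in these 3 promoters, nor in any of the 8 promoters that the table holds for 7 of the genes (Gys2 is not among them). Of all 32851 promoters in the table, 7.09% held a replicate 1 summit, 6.41% a replicate 2 summit and 3.31% both summits of a shared pair. From the G6pc start site the nearest summit was 47808 bp away in replicate 1 and 47762 bp away in replicate 2. From that of Pck1 it was 153283 bp away in replicate 1 and 6272 bp in replicate 2. From the liver start site of Pklr it was 3345 and 3325 bp away.

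The promoters were searched on both strands for the HNF4 sites CAAAGTCCA, CAAAGTTCA and CAAAGGTCA, the forkhead sites TGTTTAC and TGTTTGC, and the cyclic AMP response element TGACGTCA. None of the 8 promoters held one of the 3 HNF4 sites, which 1.33% of all promoters held. The forkhead site TGTTTGC was found 141 bp before the G6pc start, and either forkhead site was found in 8.48% of all promoters. No member promoter held TGACGTCA, found in 1.79%. A motif without a match says only that these letters are not in this window, and these motifs allow no mismatch. Sequence around the summits was not used here.

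Of the 8 genes, 5 had a shared summit inside the gene or within 50 kb, namely G6pc, Fbp1, Ppargc1a, Pklr and Pygl. The background was 47.9% of all protein-coding genes, against 62.5% of the 8 (95% exact binomial interval 24.5 to 91.5). Taken alone, replicate 1 had a summit at 6 of the 8, against 70.2% of all genes, and replicate 2 at all 8, against 73.4%. Only Ppargc1a and Pklr had a shared summit within 10 kb, and both had it inside the gene. Across all genes, 26.0% had one within 10 kb and 13.5% had one inside. With 8 genes, these shares cannot be told from the background. Intervals cover counting error only, and the 2 replicates give no finer spread.

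**Figure D1:**
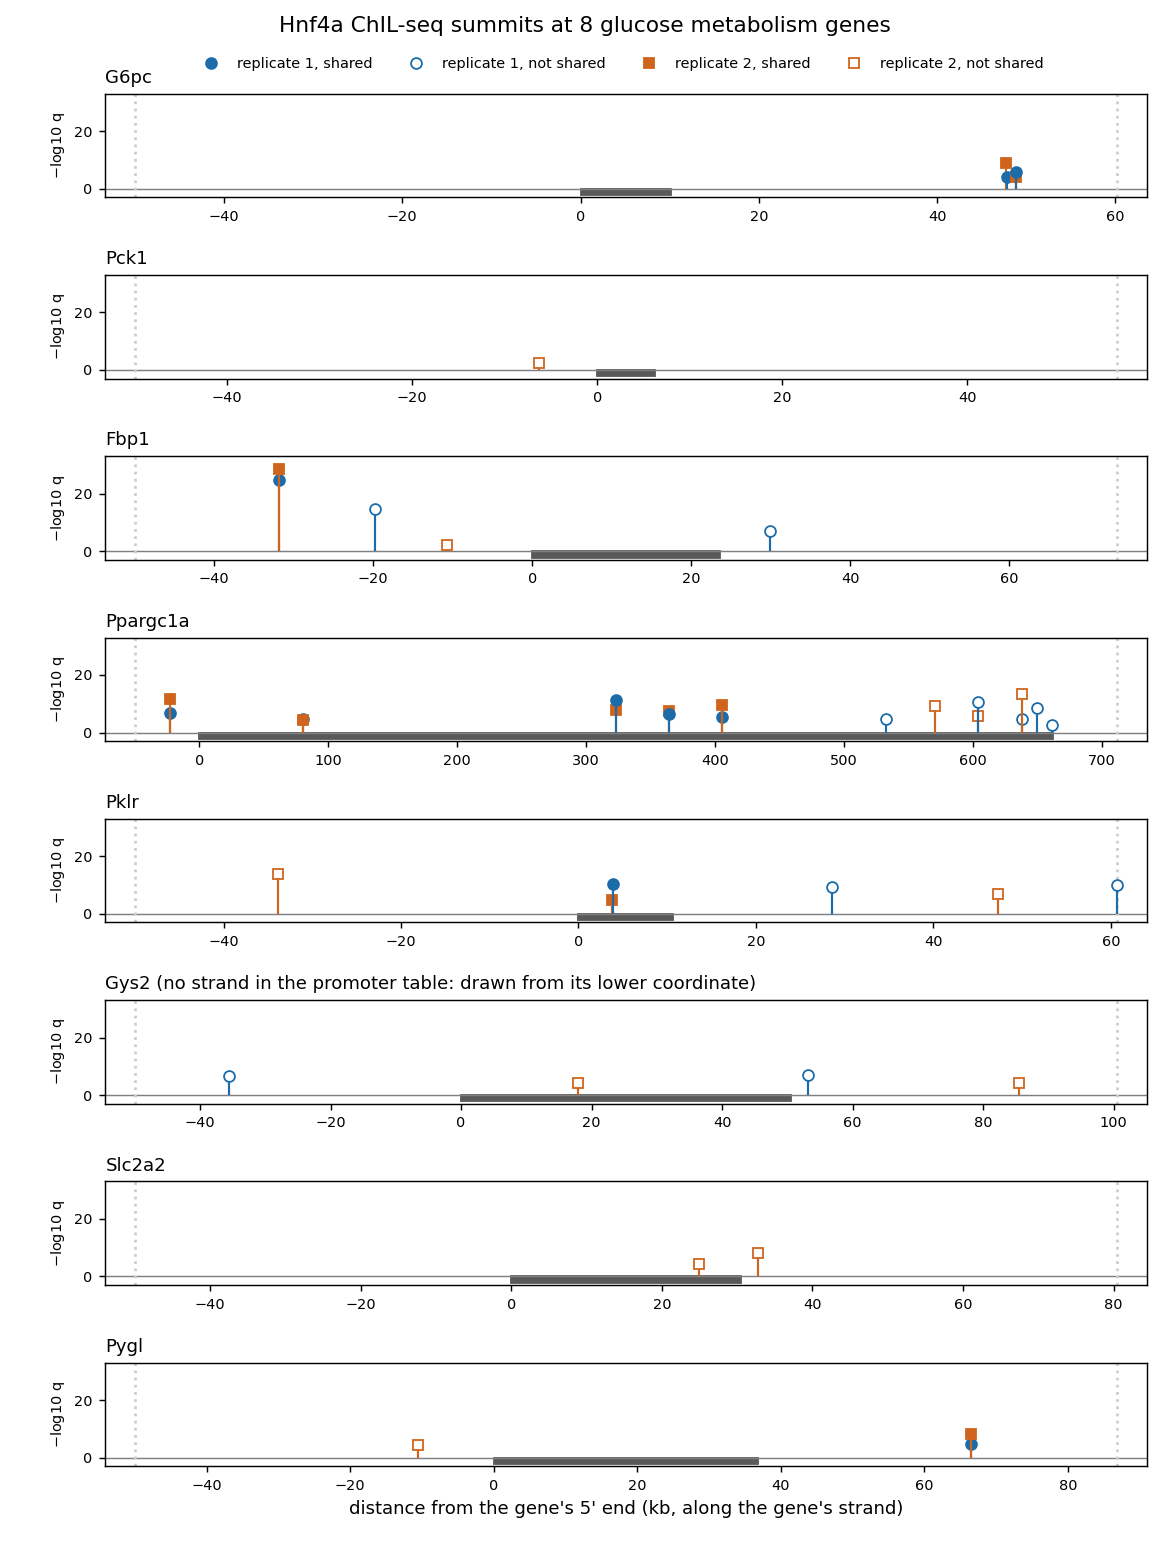
Summits at the 8 genes. Each panel plots the score (−log10 q) of every summit against its distance in kb from the gene's 5′ end along its strand (Gys2 from its lower coordinate). Grey bars are the genes, dotted lines end the 50 kb windows, circles are replicate 1, squares replicate 2, and filled symbols are shared within 100 bp. The tallest symbols are the Fbp1 pair at 24.9 and 28.5, and the Pck1 and Slc2a2 panels hold replicate 2 summits only.

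Summit density in the 8 windows was 12.9 per Mb in replicate 1, 13.5 per Mb in replicate 2 and 6.13 shared pairs per Mb. The windows of all protein-coding genes held 10.4, 11.6 and 4.52 per Mb. Ppargc1a supplied 5 of the 10 pairs. Without it the members had 12.7 and 16.1 summits and 5.76 shared pairs per Mb.

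G6pc encodes the catalytic subunit of glucose-6-phosphatase, the last enzyme of glucose release, and lies on the plus strand of chromosome 11 from 101367716 to 101377903. Its window held 2 shared pairs, and both lay beyond the 3′ end of the gene, inside the neighbour Aarsd1. The nearer pair was at 101415524 in replicate 1 (score 4.13) and 101415478 in replicate 2 (8.83), 37621 and 37575 bp from G6pc. The farther pair was at 101416603 (5.74) and 101416557 (3.91), 38700 and 38654 bp from G6pc. The order of the 2 sites by score thus differed between the replicates. In both pairs the summits stood 46 bp apart, and the sites were 1079 bp apart in each replicate. No other summit fell in the window, which has 6 other protein-coding genes.

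Pck1, the cytosolic phosphoenolpyruvate carboxykinase, lies on the plus strand of chromosome 2 from 173153073 to 173159274. Its window held no replicate 1 summit and 1 replicate 2 summit, at 173146801, 6272 bp before the gene, with a score of 2.25. This score stood at percentile 1.86 of the replicate 2 list and was shared by 729 summits there. The nearest shared pair to the gene was 148098 bp away, and 29.1% of all genes were farther from one.

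Fbp1, the liver fructose-1,6-bisphosphatase, lies on the minus strand of chromosome 13 from 62864753 to 62888298 and had the best-scored site of the 8 genes. The pair lay upstream of the gene, at 62920150 in replicate 1 (score 24.9, percentile 97.0) and 62920161 in replicate 2 (28.5, percentile 98.4). The summits were 11 bp apart and 31852 and 31863 bp from the gene. Fbp1 was the nearest protein-coding gene. By the lower of both percentiles this pair ranked 363 of 9193.

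The other summits in the Fbp1 window had no counterpart. Replicate 1 had one 19821 bp upstream (14.6, percentile 87.2), and replicate 2 had one 10720 bp upstream that scored 2.25. A further replicate 1 summit at 62858387 (7.03) lay 6366 bp beyond the 3′ end of Fbp1, within Fbp2, the muscle enzyme. The nearest replicate 2 summit was 40631 bp away.

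Ppargc1a encodes PGC-1α, the coactivator induced in fasted liver. It is annotated on the minus strand of chromosome 5 from 51454249 to 52115853, which makes its window of 762 kb far longer than the median of 117 kb over all genes. It held 10 summits in replicate 1, 8 in replicate 2 and 5 shared pairs, and 1.09% of all genes had at least as many pairs. Per 100 kb this came to 0.657 pairs, the lowest of the 5 members with a pair, of which G6pc had the highest at 1.82.

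The pairs inside Ppargc1a all lay in the part of the gene upstream of its tabulated start site at 51567725, which longer transcript models cover. The closest to that site was at 51710833 in replicate 1 (5.26) and 51710871 in replicate 2 (9.68). These lay at −143108 and −143146 bp from it, where minus means upstream. Next came 51751560 (6.57) and 51751539 (7.43), which differed least in position among the pairs inside the gene, with 21 bp. The pair at 51792452 (11.4) and 51792387 (7.89) was the only one of the 4 above the median of both lists. The farthest, at 52035431 (4.86) and 52035529 (4.21), was 98 bp apart and thus just within the limit.

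The remaining pair, at 52138389 (6.72) and 52138408 (11.5), lay 22536 and 22555 bp beyond the gene's 5′ end and was nearer to Dhx15, an RNA helicase gene. From the start site to the 3′ end, replicate 1 had 4 summits and replicate 2 had 3, and none were within 100 bp of each other. They included near misses at 51478196 (4.60) and 51478313 (13.5), which were 117 bp apart, and at 51512203 (10.7) and 51512051 (5.77), which were 152 bp apart.

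Pklr, on the plus strand of chromosome 3 from 89136122 to 89146815, had its shared summit inside the gene, at 89139968 in replicate 1 (10.5) and 89139948 in replicate 2 (4.70). Exons and introns were not used here. The log2 ratio of the scores, replicate 2 over replicate 1, was −1.16, the widest gap of the 10 pairs. Over all 9193 pairs the 5th and 95th percentiles of this ratio were −1.11 and 1.07, so the Pklr pair lay just beyond that range. In replicate 1 it stood at percentile 73.6 and in replicate 2 at percentile 24.1.

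The other Pklr summits lay beside its 7 neighbours. Replicate 2 had one at 89102232 (13.8), 265 bp from Fdps, which encodes an enzyme of isoprenoid synthesis, and one inside Fam189b (6.76). Replicate 1 had one at 89164701 (9.28), 94 bp from Clk2 and Gm45927. A replicate 1 summit 49961 bp from Pklr (10.0) had a counterpart 49 bp away that scored 7.14 but stood 50010 bp from the gene, just outside the window. This pair was not counted.

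Pygl, the liver glycogen phosphorylase that frees glucose from glycogen, lies on the minus strand of chromosome 12 from 70190815 to 70227683. Its pair was at 70161114 in replicate 1 (4.93) and 70161207 in replicate 2 (8.19), 93 bp apart, and lay beyond the 3′ end of Pygl inside Abhd12b. Replicate 2 had another summit 10545 bp upstream (4.51), nearer to Trim9. No summit fell inside Pygl in either replicate.

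Gys2, the liver glycogen synthase, lies on chromosome 6 from 142422612 to 142473130 and had 2 summits in each replicate and no shared one. Replicate 1 had summits 2645 bp from the gene (6.83) and inside Recql (6.52), and replicate 2 had summits inside Gys2 (4.21) and 109 bp from Ldhb (4.17), a lactate dehydrogenase gene. The closest of them across replicates were 32291 bp apart. All 4 scored below the median of their list, which was 7.32 in replicate 1 and 6.67 in replicate 2.

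Slc2a2 encodes GLUT2, the low-affinity glucose transporter of hepatocytes, and lies on the plus strand of chromosome 3 from 28697903 to 28728361. Replicate 1 had no summit in its window. Replicate 2 had one inside the gene at 28722828 (4.21) and one at 28730682, 2321 bp past the 3′ end (8.25). The score of 4.21 was held by 949 replicate 2 summits. The nearest shared pair was 174651 bp from the gene, farther than for any other member, and 25.9% of all genes were farther from one.

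Not all of the 10 pairs were nearest to the gene whose window held them. Ppargc1a, Fbp1 or Pklr was the nearest protein-coding gene of 6 pairs, 5 of them inside the gene. Of the remainder, 3 lay inside Aarsd1 or Abhd12b and 1 was nearest to Dhx15. Median distance to the nearest shared pair was 34727 bp for the 8 genes and 55331 bp for all protein-coding genes.

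Scores in the windows were moderate apart from the Fbp1 site. The median score of the 10 pairs was 6.16 for replicate 1 and 8.04 for replicate 2, against 9.93 and 9.61 over all pairs. Replicate 2 scored higher in 6 of the 10, and in 47.3% of all pairs. Only the Fbp1 pair and 1 Ppargc1a pair were above the median of both lists, 2 of 10, against 60.4% of all pairs. Of the members' summits, 47.6% in replicate 1 (95% exact interval 25.7 to 70.2) and 45.5% in replicate 2 (24.4 to 67.8) were shared, and these intervals hold the genome-wide shares. The 11 unshared replicate 1 summits scored 2.61 to 14.6, and the 12 of replicate 2 scored 2.25 to 13.8.

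**Figure D2:**
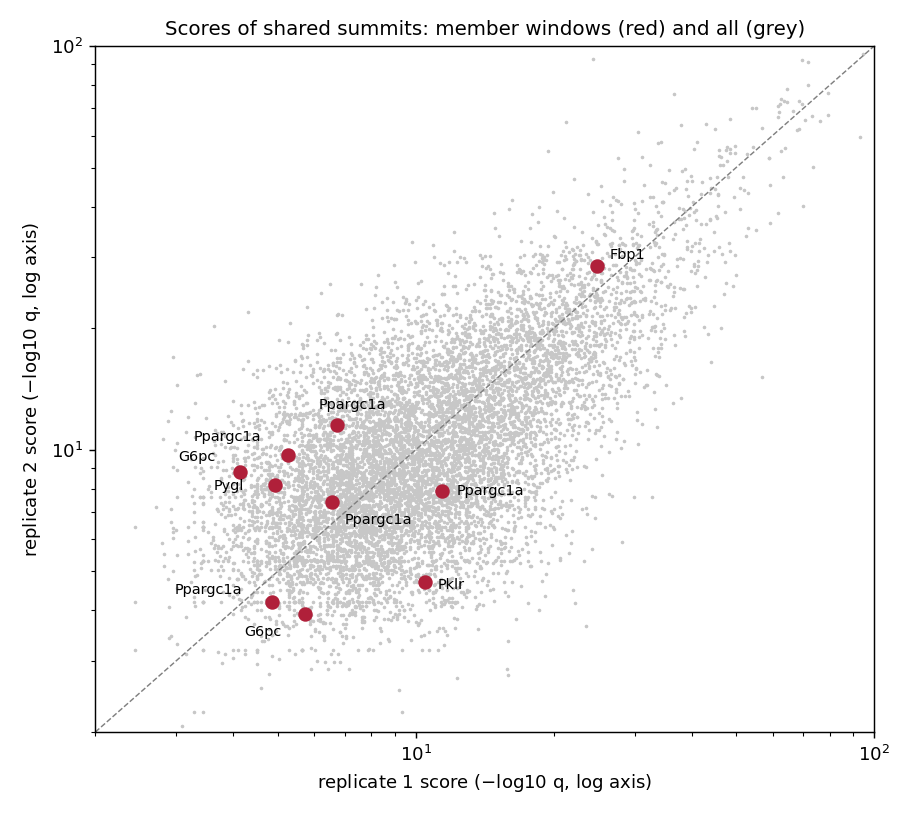
Scores of shared summits, replicate 1 on the x axis and replicate 2 on the y axis, both −log10 q on log axes. Red points are the 10 pairs in the members' windows, grey points all pairs, and the dashed line marks equal scores. Axes end at 100, which leaves out 15 grey points. Fbp1 stands near the line at 24.9 and 28.5, and Pklr lies below it at 10.5 and 4.70.

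Gluconeogenic genes were then set against glycolytic ones. Among the 8 genes, the gluconeogenic G6pc, Fbp1 and Ppargc1a had 2, 1 and 5 shared pairs and Pck1 had 0, while the glycolytic Pklr had 1. Since Pklr stands alone, lists of further pathway genes were used. Of gluconeogenic enzymes, 4 of 8 (50.0%) had a shared summit inside the gene or within 50 kb, against 7 of 13 glycolytic enzymes and their regulators (53.8%). The difference, gluconeogenic minus glycolytic, was −3.8 percentage points. The 95% exact intervals of these shares, 15.7 to 84.3% and 25.1 to 80.8%, overlapped widely. The replicates taken alone gave 2.9 points in replicate 1 and 7.7 in replicate 2, with an SD of 3.4 points. Those values count any summit of the replicate, which 84.6% or more of each list had. Their SD is thus not the error of the shared-summit difference. The glycolytic list holds Gckr and the Pfkfb genes as regulators, whereas the gluconeogenic regulators stand in a list of their own. With regulators on both sides, 13 of 17 gluconeogenic genes (76.5%) had a shared summit, against 7 of 13 glycolytic genes (53.8%), a difference of 22.6 points. With enzymes only on both sides the counts were 4 of 8 (50.0%) and 4 of 9 (44.4%), a difference of 5.6 points. Both of these settings were chosen after seeing the data. The sign thus changed with the genes and the summits counted, and no direction can be given. For the enzymes, the shares lay near the background of 47.9%, and the higher share with regulators came from the 9 of 9 regulators. Within 10 kb the counts of the first comparison were 2 of 8 and 4 of 13, against 26.0% of all genes.

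Beside the gluconeogenic enzymes, Pck2 had a pair inside the gene that scored 9.15 in replicate 1 and 10.4 in replicate 2. It was 67 bp from the Pck2 start site, whereas the nearest pair to the Pck1 start site was 154299 bp from it. Pcx, which encodes pyruvate carboxylase, had a pair 3638 bp away that scored 4.50 and 4.87 and was nearest to Rce1. On the glycolytic side, Gckr, which encodes a regulatory protein of glycolysis, had a pair 6136 bp away (13.3 and 7.77), nearest to Ift172. Pfkfb3, which makes the activator of phosphofructokinase, had its best pair within 10 kb inside the gene (11.2 and 7.66). Its best pair within 50 kb was 41628 bp away (9.64 and 22.9). Pkm, the pyruvate kinase of other tissues, had one 8116 bp away (6.04 and 7.92), nearest to Gramd2.

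Regulators of gluconeogenesis had a shared summit within 50 kb in 9 of 9 cases, Ppargc1a among them (95% exact interval 66.4 to 100%), and within 10 kb in 5 of 9 (55.6%), against 47.9% and 26.0% of all genes. Their median window was 172 kb, against 110 kb for the enzymes and 117 kb for all genes. The list was chosen with earlier results of these data known, so the interval does not test an enrichment. Creb1, the factor that relays cyclic AMP, had a pair inside the gene that scored 33.2 and 17.1. Pdk4, the kinase that shuts pyruvate dehydrogenase and so spares pyruvate, had one 136 bp from the gene (14.2 and 10.0). Pairs inside the gene scored 5.96 and 8.16 in Nr3c1, the glucocorticoid receptor, and 8.24 and 5.17 in Foxo1, which insulin restrains. Crtc2, Gcgr, Sik1 and Ppara had no pair within 10 kb. Their best pairs within 50 kb were nearest to Gatad2b, Slc25a10, Hsf2bp and Ttc38, in that order.

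The remaining lists covered steps of both directions, glycogen, transporters and insulin or glucose sensing. Enzymes of both directions had a shared summit within 50 kb in 7 of 10 cases (70.0%, 95% exact interval 34.8 to 93.3%). This interval holds the 47.9% of all genes. Gpi1, a hexose phosphate isomerase, had a pair 3747 bp away (16.5 and 14.7) that was nearest to Garre1. Aldoa, an aldolase, had one inside the gene (8.42 and 13.0), as did the enolase gene Eno1 (5.85 and 8.85), while that of Eno3 (9.25 and 5.25) was nearest to Rnf167.

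Glycogen genes had one in 9 of 17 cases (52.9%), near the 47.9% of all genes, with Pygl but not Gys2. The kinase genes Gsk3a (12.6 and 18.7) and Gsk3b (12.1 and 11.6) had pairs 63 and 297 bp from a start site. A pair that scored 10.2 and 10.4 lay 5150 bp from Phkg2, a subunit of phosphorylase kinase, and was nearest to Ccdc189, and one inside Ugp2, which makes UDP-glucose, scored 8.53 and 5.46.

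Transporters had one in 4 of 8 cases (50.0%), near the 47.9% of all genes. Slc2a3 (GLUT3) had a pair 8524 bp away that scored 26.9 and 28.6, Slc2a1 (GLUT1) had one inside the gene (10.2 and 9.86), and so did Slc2a10 (7.32 and 14.2). Insulin and glucose sensing had one in 8 of 10 cases (80.0%, 95% exact interval 44.4 to 97.5%). This interval holds the 47.9% of all genes. A pair 9420 bp from Mlxipl, the carbohydrate-responsive factor ChREBP, scored 18.2 and 30.5 and was nearest to Tbl2. Pairs inside Insr, the insulin receptor gene, scored 12.5 and 16.3, and inside Igf1r 6.82 and 7.30. In all, 43 of 67 pathway genes outside the 8 had one within 50 kb (64.2%), and 25 within 10 kb (37.3%), against 47.9% and 26.0% of all genes. The lists were chosen with earlier results of these data known, so these shares do not test an enrichment. Median windows of the lists ran from 108 to 172 kb, against 117 kb for all genes, and the part of window length was not tested.

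**Figure D3:**
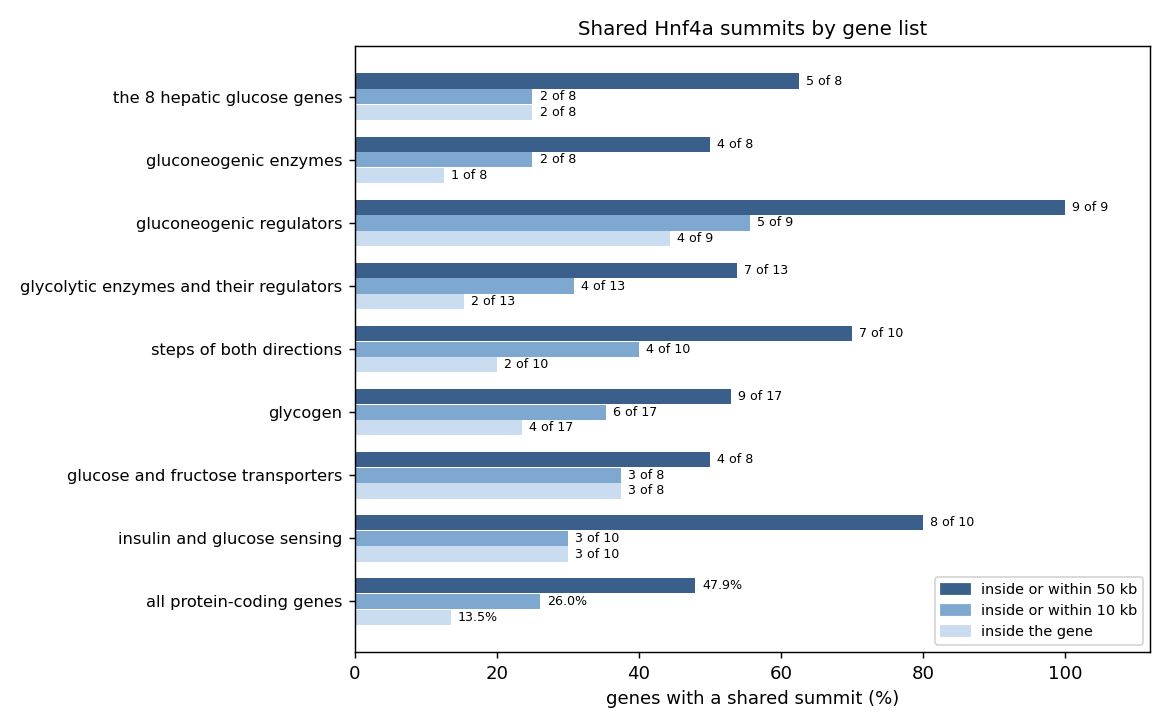
Share of genes (%, x axis) with a shared summit for the 8 hepatic glucose genes, 7 pathway lists and all protein-coding genes, by 3 distances from the gene. Numbers at the bars are counts of genes, or percent for all genes. Gluconeogenic enzymes stand at 4 of 8 and glycolytic genes at 7 of 13 within 50 kb, near the 47.9% of all genes.

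Of 64 pathway genes with a tabulated promoter, Pdk4, Aldoa, Gsk3a and Phkg2 held both summits of a pair in a promoter. For Aldoa the pair lay in the overlapping promoters of the start sites 126799254 and 126799178. The count of genes is thus not a count of promoters. The 64 genes have 91 promoters, and 3.31% of all 32851 promoters held both summits of a pair. No excess over that share was tested. Those of Pdk4 and Aldoa are printed as examples of promoters with a shared summit, to set beside the G6pc, Pck1 and Pklr promoters above. They are from RefSeq (GRCm38.p6), both on the minus strand and printed 5′ to 3′, and capitals run from one replicate's summit to the other's. The Pdk4 promoter is chr6:5496229-5496528, with summits 189 bp (replicate 1) and 136 bp (replicate 2) before the start. That of Aldoa is chr7:126799205-126799504, with summits 15 bp after and 30 bp before it.
Pdk4: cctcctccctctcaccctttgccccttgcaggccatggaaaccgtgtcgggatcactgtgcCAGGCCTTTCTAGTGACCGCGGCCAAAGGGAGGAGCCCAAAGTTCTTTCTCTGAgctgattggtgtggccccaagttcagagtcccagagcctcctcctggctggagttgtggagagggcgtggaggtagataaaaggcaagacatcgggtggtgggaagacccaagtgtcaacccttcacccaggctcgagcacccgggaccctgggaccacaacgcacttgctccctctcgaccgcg
Aldoa: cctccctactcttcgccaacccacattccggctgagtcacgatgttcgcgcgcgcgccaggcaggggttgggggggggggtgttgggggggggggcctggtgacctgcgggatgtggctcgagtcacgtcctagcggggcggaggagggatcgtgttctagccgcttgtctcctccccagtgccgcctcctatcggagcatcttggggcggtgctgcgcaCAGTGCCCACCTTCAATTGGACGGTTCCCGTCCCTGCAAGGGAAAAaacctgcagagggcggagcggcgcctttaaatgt

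Neither promoter held any of the 6 motifs searched. Both Pdk4 summits scored above the median of their list, at percentiles 86.1 and 75.7, and so did those of Aldoa, at 60.5 and 86.0.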

How the data were processed

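Hnf4a ChIL-seq peak summits of 2 iHepC samples were used. Per the submitters' processing notes, reads were handled with fastp 0.23.4, HISAT2 2.0.5 and MACS2 2.2.9.1 on mm10. The deposited score of each 1-bp summit is taken as the −log10 q-value (column 5), since a q cutoff of 0.01 stands in the names of peaks and the lists start at 2.04 and 2.01. Peaks were called per library. Control library and duplicate handling are not given in the sources used here. Without read counts, depth is unknown.

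Gene positions came from RefSeq GRCm38.p6, the assembly of mm10, and strands and start sites from its promoter table. A shared summit is a one-to-one pair within 100 bp, nearest first, with both summits in the window (gene plus 50 kb each side). Percentiles are ranks within a list. Differences and shares were described without a test, since there is 1 group. The members and the 7 pathway lists (75 genes) were chosen with earlier results of these data known. All 8 genes are named, as are up to 4 other genes of each list by the lower percentile of their best pair within 10 kb, and nearer neighbours. Some list genes without a pair within 10 kb are named too, to show the limits of a comparison. Alternatives covered sharing distance, window, gene assignment, score, single replicates and, chosen after seeing the data, the regulators on each side. Values of some list genes and neighbours are not reported here. Pairing and window counts were tested on simulated data. Python 3.11.15, numpy 2.4.6, pandas 2.3.3, scipy 1.17.1 and matplotlib 3.10.9 were used.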

Additional observations from a re-analysis of the deposited data

How the results depend on the processing

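The 5 members with a shared summit became 3 with a sharing distance of 25 bp, 2 with a window of 10 kb, 2 inside the gene only, 3 when a pair counted only for its nearest gene, 2 with scores of 5 or more and 2 with the top 10000 summits. They stayed at 5 with 250 or 500 bp and were 6 with a window of 100 kb. The 10 shared pairs became 4, 5, 5, 6, 5 and 2 under the same 6 settings, 12 with 250 or 500 bp and 15 with 100 kb. With replicate 1 alone, 6 members had a summit, against 70.2% of all genes. With replicate 2 alone, 8 had one, against 73.4%. The windows held 21 to 22 summits. The difference of −3.8 percentage points, gluconeogenic minus glycolytic, was −13.5 at 25 bp and −19.2 at both 250 and 500 bp. It was −5.8 with a window of 10 kb, −2.9 inside the gene and −1.0 with scores of 5 or more. Positive values were 13.5 with 100 kb, 1.9 by nearest gene, 6.7 with the top 10000 summits and 2.9 to 7.7 with 1 replicate alone. With regulators on both sides it was 22.6, and with enzymes only on both sides 5.6 (both chosen after seeing the data). The cause was not tested. The background moved too, to 26.6% of all genes at 25 bp, 53.5% at 250 bp, 54.5% at 500 bp, 26.0% with 10 kb, 62.6% with 100 kb, 13.5% inside the gene, 43.9% with scores of 5 or more and 32.0% with the top 10000 summits. With 10 kb and under both score settings the members' share, 2 of 8, lay below it. No background was computed for the setting by nearest gene. With the top 10000 summits, Fbp1 and Ppargc1a each kept 1 pair. No paired analysis was possible because there is 1 group. Read depth is unknown, so a gene without a summit cannot be called unbound.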

Other observations

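Isoenzymes and related transporters differed in where their nearest shared summit lay. They were picked after their values were seen, and no test was run. Pck2 had a pair inside the gene and Pck1 had none within 50 kb. Slc2a1 and Slc2a3 each had 2 pairs within 10 kb, and Slc2a2 had none within 50 kb. Slc2a5, Slc2a8 and Slc2a9 had none within 50 kb either, whereas Slc2a4 had 1 and Slc2a10 had 2. Other cases went the opposite way within 50 kb. G6pc had 2 pairs and G6pc3 had 0, and Fbp1 had 1 and Fbp2 had 0. The glycogen phosphorylases were mixed, as Pygl had 1 pair, Pygb 0 and Pygm 2. Across all genes, 47.9% had a shared summit within 50 kb and 26.0% within 10 kb.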
